A study of Rattus norvegicus with 6 samples.

Results

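A group of 10 rat genes around the cullin 3 ubiquitin ligase were examined in cells grown from the aorta of hypertensive and normotensive rats. They comprise the scaffold Cul3 and its RING partner Rbx1, the substrate adaptors Spop, Spopl, Klhl2, Klhl3, Rhobtb1 and Kbtbd2, and the kinase genes Wnk1 and Wnk4. The members were chosen by gene symbol, for their roles, after Spopl was seen to be low in the hypertensive strain, and all 10 were found among the 16770 genes of the count table. The strain difference of Spopl is therefore a description here and is given with no test. The question asked of the other genes was whether Spop, the close relative of Spopl, was higher where Spopl was low. The spontaneously hypertensive rat (SHR) was compared with Wistar Kyoto (WKY), the normotensive strain it is usually set against, with 3 libraries of each. All rats were 3 months old. In both strains the part of the aorta next to the heart was explanted with its luminal face down, and the cells that grew, labelled endothelial, were cultured in a medium for endothelial cells, with serum and a growth supplement, until RNA was taken. Replicates 1 and 2 of each strain are labelled batch 1, and replicate 3 of each strain is labelled batch 2. Whether each library came from its own animal is not stated per sample, and p-values therefore reflect the spread among these libraries, which may be technical.

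A cullin-RING ligase joins a substrate to a ubiquitin-loaded enzyme. In the cullin 3 form, a protein with a BTB domain binds the scaffold through that domain and holds the substrate with another, so the set of adaptors present decides which proteins are marked. The ligase is switched on by attachment of the small protein NEDD8 to the cullin. KLHL3 and KLHL2 bring WNK1 and WNK4 to the ligase. WNK kinases activate the kinases SPAK and OSR1, which act on sodium, potassium and chloride cotransporters, and human mutations in CUL3, KLHL3, WNK1 or WNK4 cause a familial form of hypertension with high serum potassium. SPOP and SPOPL belong to another adaptor class, which binds substrates through a MATH domain, and the human proteins can assemble with each other.

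Libraries held 18462051 to 19947278 counts, a similar depth in both strains. Levels are given as CPM of the TMM-scaled library and are not divided by transcript length, so they are compared between libraries and not between genes. The labelled cell type was checked against 16 endothelial markers, of which 13 were measured. Cdh5, Kdr, Tie1, Vwf, Erg, Nos3 and Sox18 stayed under 1 CPM in every library, and Pecam1 lay between 0.11 and 2.18 CPM. Tek, an angiopoietin receptor gene, was low but lay higher in SHR, with 0.66, 1.85 and 0.44 CPM in WKY and 4.72, 9.38 and 8.32 CPM in SHR. Pecam1 and Tek were the 2 of the 13 with every SHR library above every WKY library, against 569 of the 12614 genes tested. Only 5 of the 13 passed the count filter, of which 2 had a positive fitted difference, and edgeR called 0. Means were lower in SHR, with overlap, for Eng (330 ± 270 CPM in WKY and 219 ± 67.1 CPM in SHR). The same held for Esam (0.81 ± 0.92 and 0.087 ± 0.15 CPM) and Sox17 (1.88 ± 1.59 and 0.76 ± 1.28 CPM; SD, n = 3 each). Egfl7 lay between 6.39 and 27.2 CPM, and most of the summed level of the list came from Eng (119 to 635 CPM), which other vascular cells also express. The 10 smooth muscle markers summed to 944 to 2389 CPM in 5 libraries and to 9225 CPM in WKY replicate 3. The 10 fibroblast markers summed to 5754 to 15831 CPM in WKY and to 12421 to 15232 CPM in SHR. All 10 had a positive fitted difference, against 5981 of the 12614 genes tested, and edgeR called 1. For 6 of the 10 every SHR library lay above every WKY library, against the same 569 of 12614. The 10 mesothelial and epithelial markers summed to 174 to 679 CPM in WKY and to 397 to 1373 CPM in SHR. Of the 6 tested, 5 had a positive fitted difference and edgeR called 0. In batch 2, 9 of the 10 were higher in SHR. Of 9 macrophage and leukocyte markers measured, 7 stayed under 1 CPM in every library. In such bulk samples fewer cells of a type and less RNA per cell cannot be told apart.

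Spopl was several-fold lower in SHR, in both batches, and Spop was not higher. Spopl stood at 46.4, 43.9 and 26.9 CPM in WKY replicates 1, 2 and 3 and at 4.30, 5.40 and 4.99 CPM in SHR replicates 1, 2 and 3. All SHR libraries lay far below all WKY libraries, and the lowest WKY value came from batch 2. These levels rest on 433 to 919 counts per WKY library and 82 to 106 counts per SHR library. The fitted ratio was 7.76-fold lower in SHR (log2 fold change -2.96, SE 0.23), and the difference was -3.23 on the log2 scale within batch 1 and -2.43 between the single libraries of batch 2. All 10 fibroblast markers had a positive fitted difference, opposite in sign to Spopl, and edgeR called 1. Of the 9 smooth muscle markers tested 0 had a positive one, and edgeR called 0. In batch 2 the fibroblast markers summed to 12421 CPM in SHR against 15831 CPM in WKY, of which Col1a1 made up 4560 against 10878 CPM. But 8 of the 10 were higher in SHR there, among them Dcn (1307 against 8.39 CPM) and Lum (599 against 69.2 CPM). Of the 10 smooth muscle markers 2 were higher in SHR in batch 2. The part of any of the marker lists in the strain difference of Spopl was not tested. Among the 10486 genes tested with a mean of at least 5 CPM, Spopl had the 28th lowest log2 fold change.

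Spop itself stood at 117, 105 and 54.8 CPM in WKY and at 87.3, 74.4 and 55.0 CPM in SHR. In batch 1 both SHR libraries were below both WKY libraries, and in batch 2 the strains had nearly the same level. The fitted ratio of SHR to WKY was 0.81, with a 95% confidence interval of 0.62 to 1.06 (log2 fold change -0.30, SE 0.16). The edgeR quasi-likelihood test did not call it (nominal p, before adjustment, 0.104; adjusted p = 0.478). Within batch 1 the difference was -0.46 on the log2 scale and in batch 2 it was 0.01. Spop would have had to be 1.37-fold higher in SHR to keep the summed CPM of both genes at the WKY mean. This figure is computed from the low Spopl in SHR, for which the set was chosen, and has no interval. It uses means over both batches. The upper bound of 1.06 for Spop lies below it but comes from the fit with a batch term, so setting them side by side is a description. The figure of 1.37 weights a count of each gene equally, since transcript lengths were not used, and protein was not measured.

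The counts of both genes added together, which include the gene the set was chosen for, were lower in SHR. The sum was 163, 149 and 81.7 CPM in WKY and 91.6, 79.8 and 60.0 CPM in SHR. The groups overlapped only through WKY replicate 3, and within each batch SHR was lower. The fitted ratio of the sum was 0.60 (log2 fold change -0.73, SE 0.15), with a difference of -0.87 in batch 1 and -0.44 in batch 2. Spopl made up 28.4%, 29.5% and 33.0% of the counts of both genes in WKY and 4.70%, 6.77% and 8.31% in SHR. In both strains the share was highest in the batch 2 library, where the summed level was lowest. The exact binomial 95% intervals of the shares ran from 26.8% to 35.6% over the WKY libraries and from 3.75% to 10.1% over the SHR libraries, and they cover counting error only. Mean shares were 30.3% ± 2.39 for WKY and 6.59% ± 1.81 for SHR (SD, n = 3 each). Deposited counts of both genes were whole in all 6 libraries (tolerance 0.001).

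**Figure D1:**
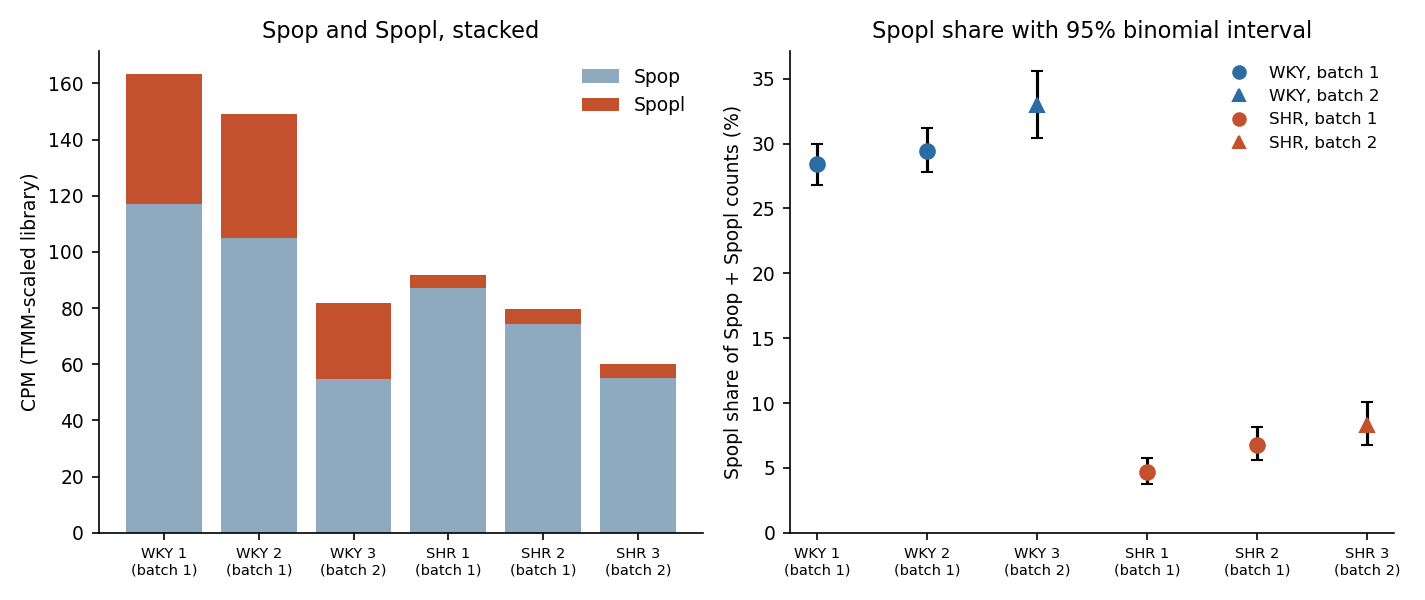
Left, CPM of Spop and Spopl stacked for each library. Right, the Spopl share of the counts of both genes with its exact binomial 95% interval. The Spopl part of the bar is small in the 3 SHR libraries (4.30 to 5.40 CPM). The Spop part is smaller in SHR than in WKY in batch 1 and nearly equal in batch 2 (55.0 and 54.8 CPM).

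For the core of the ligase no strain difference was detected. Cul3, the scaffold, stood at 125, 108 and 77.2 CPM in WKY and at 109, 105 and 75.4 CPM in SHR. Its libraries of batch 2 were the lowest of each strain and the groups overlapped. The fitted ratio was 0.94 with an interval of 0.76 to 1.16 (adjusted p = 0.784). Rbx1, which recruits the ubiquitin-loaded enzyme, stood at 80.5, 96.1 and 29.9 CPM in WKY and at 83.5, 88.7 and 24.3 CPM in SHR. Both batch 2 libraries were about equally low, and the fitted ratio of the strains was 0.92 with an interval of 0.73 to 1.16 (adjusted p = 0.73). Of the 9 tested cullin and RING genes neither edgeR nor DESeq2 called any, against 0.254% and 5.14% over all. The nominal p was under 0.05 in 0, against 13.3% of all genes tested. The log2 fold changes of the 9 ran from -0.25 (Cul5) to 0.11 (Rnf7), with a median of -0.08 against -0.02 over all genes tested.

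Genes that attach NEDD8 to cullins, remove it or exchange adaptors were represented by 25 genes. EdgeR called none of them. A nominal p under 0.05 was reached by 1 higher and 0 lower genes, against 13.3% of all genes tested. The Wald test of DESeq2, which called 5.14% of the genes it tested, called that gene. It was Dcun1d3, a co-factor of cullin neddylation, with 33.1, 33.5 and 22.1 CPM in WKY and 46.5, 46.4 and 44.0 CPM in SHR. Every SHR library lay above every WKY library (log2 fold change 0.65, SE 0.15, edgeR adjusted p = 0.206, DESeq2 adjusted p = 0.0104). Arih1, a ligase that works with neddylated cullins, had 101 ± 14.8 and 87.4 ± 12.3 CPM, and Cops4, a subunit of the signalosome that removes NEDD8, had 57.9 ± 4.26 and 66.2 ± 2.65 CPM (SD, n = 3 each; edgeR adjusted p = 0.508 and 0.546). The median log2 fold change of the list was -0.11.

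None of the other adaptors among the members passed the edgeR test, by which 0.254% of all genes tested were called. Klhl2, a Kelch adaptor for WNK kinases, stood at 66.7, 42.6 and 36.7 CPM in WKY and at 37.4, 48.5 and 19.8 CPM in SHR. The groups overlapped, with the highest value in WKY replicate 1 and the lowest in SHR replicate 3. The fitted log2 fold change was -0.53 (SE 0.24, adjusted p = 0.42). Klhl3, the adaptor altered in human familial hypertension, was scarce, with 41, 41 and 40 counts in WKY and 25, 38 and 34 counts in SHR. This corresponds to 2.07, 2.17 and 2.49 CPM and to 1.31, 1.94 and 1.77 CPM. The SHR libraries all lay below the WKY libraries, but the exact Poisson 95% interval of the lowest library (0.85 to 1.94 CPM) reached into that of WKY replicate 1 (1.49 to 2.81 CPM). The difference was not called by edgeR (log2 fold change -0.42, SE 0.33, adjusted p = 0.628). Kbtbd2, the adaptor for the p85 alpha subunit of phosphoinositide 3-kinase, had 41.8, 39.1 and 21.0 CPM in WKY and 37.2, 37.6 and 24.6 CPM in SHR. Its fitted ratio was 1.00 with an interval of 0.80 to 1.25 (adjusted p = 0.996).

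Rhobtb1 was the member with a fitted increase. It encodes an atypical small GTPase that in mouse smooth muscle brings phosphodiesterase 5 to the cullin 3 ligase. Its levels were 10.1, 15.0 and 30.3 CPM in WKY and 25.2, 17.2 and 43.6 CPM in SHR. Within each batch the SHR libraries lay above those of WKY, although across batches the groups overlapped because batch 2 was higher in both strains. The log2 fold change was 0.68 (SE 0.23), with 0.76 in batch 1 and 0.52 in batch 2. It did not pass the edgeR test (adjusted p = 0.325). DESeq2 did not call it either (adjusted p = 0.156). Its relative Rhobtb2 had 21.8 ± 4.55 CPM in WKY and 32.0 ± 15.3 CPM in the SHR group (SD, n = 3 each; adjusted p = 0.376).

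**Figure D2:**
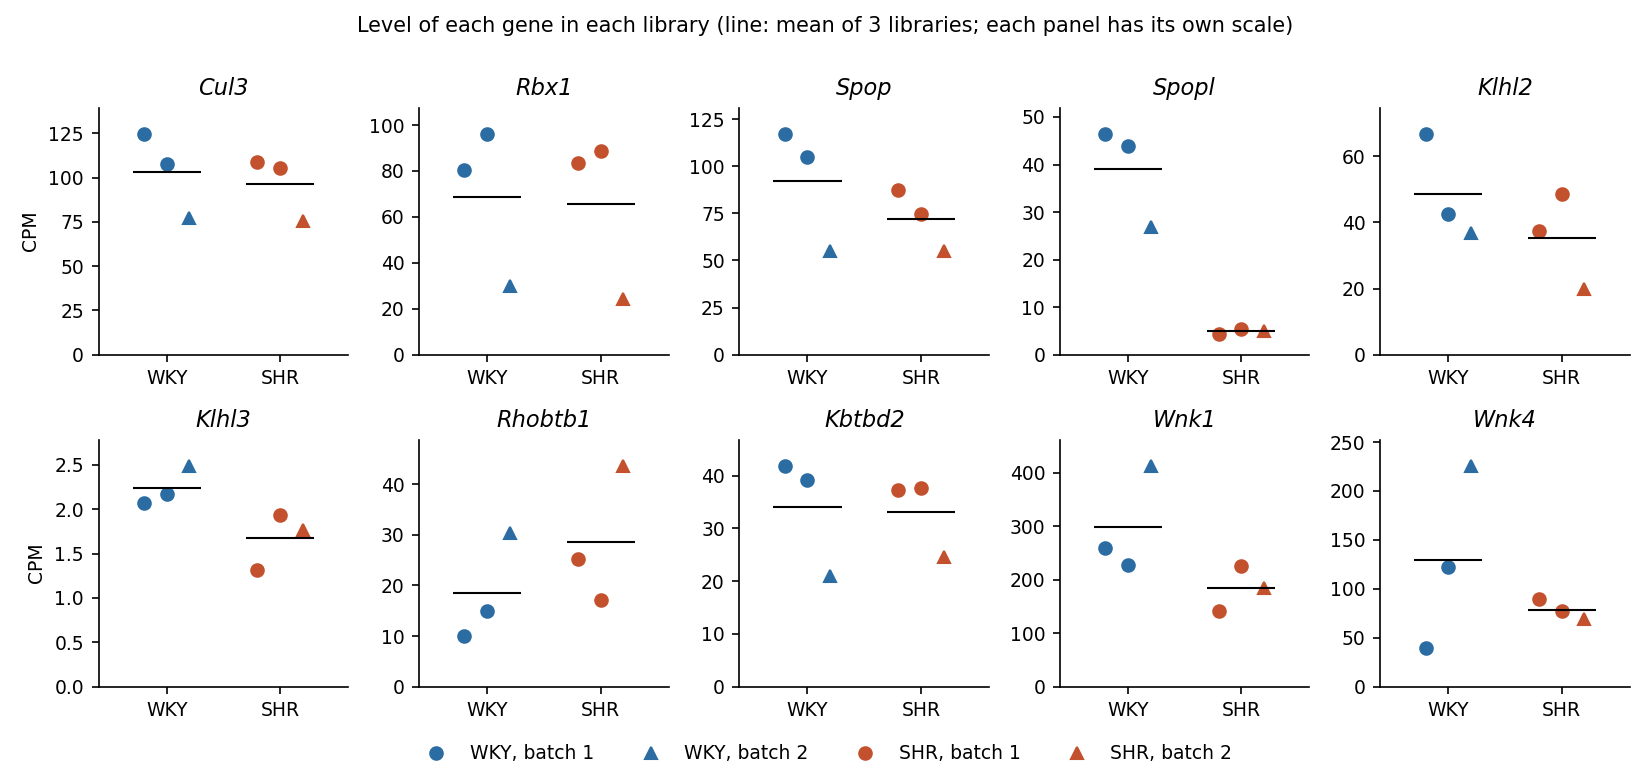
CPM of each of the 10 genes in each library, WKY in blue and SHR in orange, circles for batch 1 and triangles for batch 2. The libraries of the strains are separate for Spopl, Klhl3 and Wnk1, and for Spopl the gap is wide (26.9 CPM in the lowest WKY library and 5.40 CPM in the highest SHR library).

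Neither kinase gene of the set was called. Wnk1, which is broadly expressed, stood at 259, 227 and 413 CPM in WKY and at 142, 226 and 185 CPM in SHR. Every SHR library was below every WKY library, but WKY replicate 2 and SHR replicate 2 were nearly level. The log2 fold change was -0.65 (SE 0.26), with -0.43 in batch 1 and -1.15 in batch 2. It became -0.94 without SHR replicate 2 and -0.40 without replicate 3 of either strain. It did not pass the edgeR test (adjusted p = 0.373). Wnk1 counts of 2 libraries were not whole. In the RefSeq annotation of GRCr8, not the Rnor_6.0 build of the processing notes, its gene model overlaps those of Rad52 and Rps12l11. Its values are uncertain to that extent. The Klhl3 model also overlaps a protein-coding one there (LOC108348619), though its counts were whole. Cul3, Spop, Klhl2, Rhobtb1 and Wnk4 overlap models that are not protein-coding. Wnk4, best known from the distal nephron, stood at 39.9, 122 and 225 CPM in WKY and at 89.4, 77.7 and 68.7 CPM in SHR. The SHR values lay between the lowest and the middle WKY value. The direction differed between batches, at 0.26 on the log2 scale in batch 1 and -1.71 in batch 2 (log2 fold change -0.53, SE 0.57, adjusted p = 0.726). WKY replicate 3 held the highest level of both kinases and the highest summed level of the smooth muscle markers (9225 CPM), and the part of that in these differences was not tested.

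Of 14 tested genes of the WNK pathway neither edgeR nor DESeq2 called any, against 0.254% and 5.14% over all. A nominal p under 0.05 was found for 1 higher and 2 lower, against 13.3% of all genes tested. Wnk1 was among those lower. The higher gene was Nedd4l, a ubiquitin ligase for the epithelial sodium channel. Nedd4l had 21.4, 24.2 and 21.3 CPM in WKY and 31.3, 25.4 and 29.5 CPM in SHR, without overlap (fitted log2 difference 0.37, SE 0.15, adjusted p = 0.372). The SPAK gene Stk39 had 13.4 ± 2.93 and 18.4 ± 3.47 CPM and the OSR1 gene Oxsr1 had 138 ± 24.6 and 114 ± 27.6 CPM (SD, n = 3 each). The cotransporter gene Slc12a2, the family member of cells outside the kidney, had 82.5 ± 42.9 and 79.1 ± 43.2 CPM. The kidney cotransporter genes Slc12a1 and Slc12a3 and the kinase gene Wnk2 had too few counts to be tested, with means of at most 0.067 CPM in either strain. The median log2 fold change of the 14 genes was -0.22.

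Among the 9 members other than Spopl, 0 were called by edgeR, which called 32 of 12614 genes (0.254%) at an adjusted p below 0.05, and 0 by DESeq2, which called 5.14% of the genes it tested. With the replicate number fitted as a block, edgeR called 6 genes over all. In the edgeR fit with the batch term, 2 of these 9 members had a nominal p under 0.05, against 13.3% of all genes tested. They were Rhobtb1, higher, and Wnk1, lower. In the edgeR block fit their nominal p was 0.052 and 0.061. For 3 of the 10 members the strains were fully separate, each lower in SHR, against 5.30% of all genes tested that were separate with SHR below. This count includes Spopl, for which the set was chosen, and nothing is read from it.

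A contrast that played no part in the choice of the members was that between the labelled batches. Of the 10, 1 was higher and 5 were lower in batch 2 by the edgeR quasi-likelihood test, against 21.0% of all genes tested higher and 22.5% lower, or 43.5% in all. The share lower in batch 2 was above that of all genes, and the share higher was below it. With only 10 genes nothing is read from these shares, and the values that follow describe the single genes. Rbx1 fell most, from a mean of 87.2 CPM in the 4 libraries of batch 1 to 27.1 CPM in the 2 of batch 2 (log2 fold change -1.69, SE 0.16, adjusted p = 0.00164). Spop was lower in batch 2 by 0.78 on the log2 scale (fitted log2 fold change -0.78, SE 0.17, adjusted p = 0.016). Cul3 (-0.55, adjusted p = 0.0219), Klhl2 (-0.84, adjusted p = 0.0458) and Kbtbd2 (-0.77, adjusted p = 0.00919) were lower too, in the same edgeR fit. Rhobtb1 rose in batch 2, with means of 16.9 CPM in batch 1 and 36.9 CPM in batch 2 (fitted log2 difference 1.16, SE 0.23, adjusted p = 0.0123). Spopl did not pass (-0.36, SE 0.23, adjusted p = 0.254), nor did Klhl3, Wnk1 and Wnk4. The batch intervals of Spop (-1.21 to -0.35) and Spopl (-0.93 to 0.21) overlapped, and the difference between them was not tested. What the batches differ in is not stated beyond the label.

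**Figure D3:**
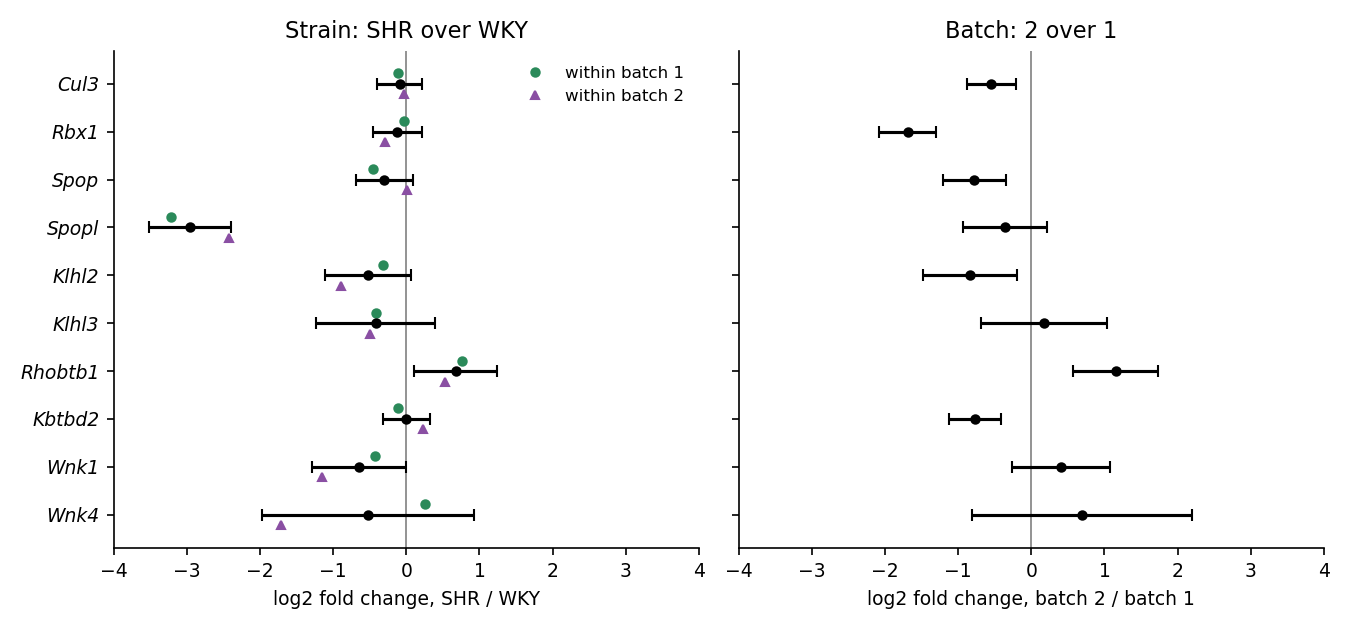
Fitted log2 fold changes of the 10 genes with 95% confidence intervals, between strains on the left and between batches on the right. Coloured points on the left are the differences within batch 1 and within batch 2. The lowest value on the right is that of Rbx1 (-1.69). Spopl is lowest on the left (-2.96), the value for which the set was chosen, and the coloured points of Wnk4 lie on opposite sides of 0.

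The wider class of BTB adaptors was represented by 57 tested genes. Of the 56 other than Spopl, edgeR called 0, against 0.254% over all, and DESeq2 called 1, against its 5.14% over all. A nominal p under 0.05 was found for 6, against 13.3% of all genes tested. The log2 fold changes of the 56 ran from -1.11 (Abtb2) to 0.73 (Enc1), with a median of -0.06. In the Kelch group neither edgeR nor DESeq2 called any of 33, and 1 higher and 0 lower had a nominal p under 0.05. That was Klhl23, with 7.54 ± 2.06 and 11.6 ± 3.10 CPM (edgeR adjusted p = 0.249), and Klhl8 had 7.60 ± 2.22 and 9.93 ± 2.84 CPM (SD, n = 3 each; adjusted p = 0.408). In the KCTD and BTBD group 0 of 19 were called by edgeR. There 1 higher and 3 lower genes had a nominal p under 0.05, and the adaptor that DESeq2 called, lower in SHR, was among them. This was Kctd10, with 397, 491 and 302 CPM in WKY and 320, 306 and 161 CPM in SHR (edgeR adjusted p = 0.249, DESeq2 adjusted p = 0.0197). Within each batch its SHR libraries were the lower ones. Btbd9 had 19.5 ± 2.04 and 13.8 ± 1.33 CPM and Btbd1 had 69.7 ± 18.1 and 94.6 ± 35.9 CPM (SD, n = 3 each; edgeR adjusted p = 0.306 and 0.333).

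Transcripts of proteins that cullin 3 adaptors mark for degradation were listed as well. Their levels do not measure the proteins, on which the ligase acts. Of 8 vascular and metabolic substrates and partners neither edgeR nor DESeq2 called any, against 0.254% and 5.14% over all. The nominal p was under 0.05 in 0, against 13.3% of all genes tested. The median log2 fold change of the 8 was -0.08. Nfe2l2, the transcription factor gene whose product is held low by the adaptor KEAP1, had 410, 322 and 287 CPM in WKY and 270, 233 and 260 CPM in SHR, without overlap (fitted log2 difference -0.41, SE 0.18, adjusted p = 0.416). Ppp1r12a, a myosin phosphatase subunit gene, had 109 ± 26.5 and 83.8 ± 4.03 CPM, and Pik3r1, which encodes p85 alpha, had 194 ± 34.9 and 221 ± 45.4 CPM (SD, n = 3 each). Rhoa had 1008 ± 194 and 1011 ± 330 CPM, and the phosphodiesterase 5 gene Pde5a had 24.9 ± 3.45 and 28.2 ± 4.83 CPM.

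Of 17 tested genes listed as SPOP substrates, edgeR called 0. A nominal p under 0.05 was seen in 3 higher and 0 lower genes, against 13.3% of all genes tested, and among these DESeq2 called 1, against its 5.14% over all. This was Egr1, an immediate early transcription factor gene, whose place among SPOP substrates is not certain. It had 16.5, 20.6 and 136 CPM in WKY and 69.8, 45.0 and 271 CPM in SHR (fitted log2 difference 1.42, SE 0.24, edgeR adjusted p = 0.126), with the batch 2 library highest in both strains. Daxx, a transcriptional regulator, had 28.7, 29.2 and 33.7 CPM in WKY and 34.5, 36.3 and 40.5 CPM in SHR, without overlap (adjusted p = 0.37). Cdc20, a mitotic activator gene, had 78.0 ± 52.2 and 115 ± 82.5 CPM (SD, n = 3 each; adjusted p = 0.305). The median log2 fold change of the list was 0.17.

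**Figure D4:**
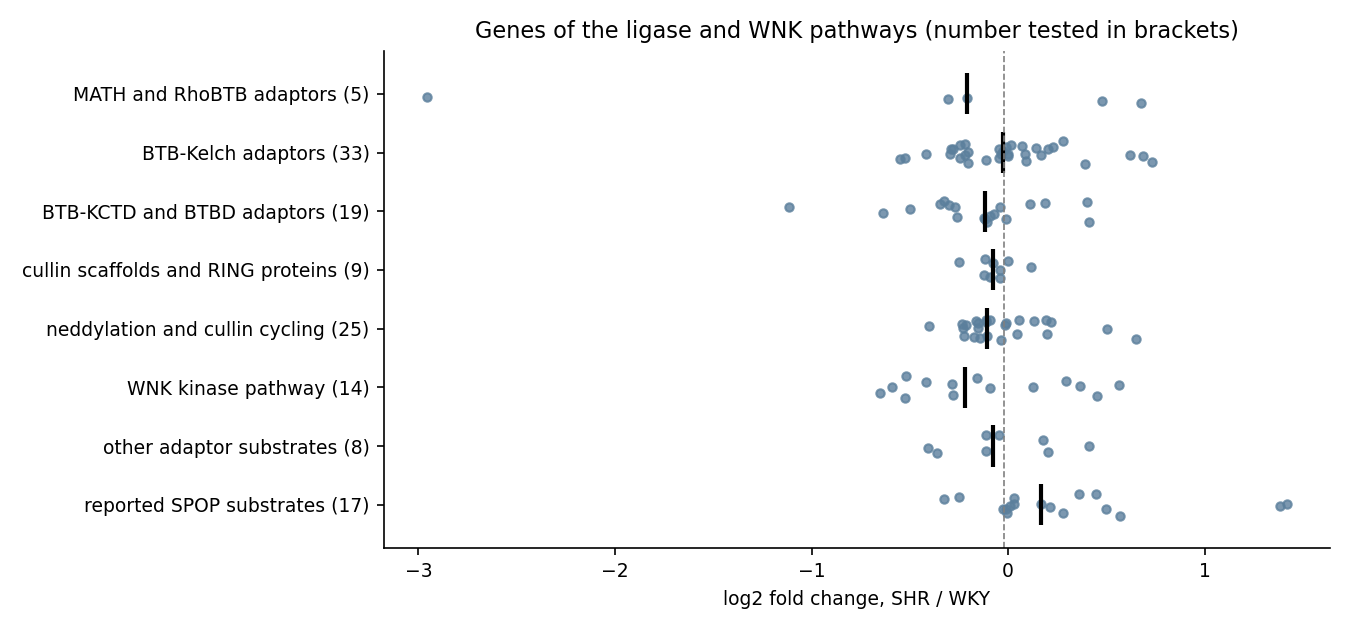
Log2 fold changes of SHR over WKY for every tested gene of 8 lists, 1 point a gene, with the median of each list as a bar and the median of all genes tested (-0.02) as a dashed line. Points are spread vertically only for legibility, and some genes stand in more than 1 list. The point at -2.96 is Spopl, for which the set was chosen, and the other 56 adaptors lie between -1.11 and 0.73.

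The genes most like Spopl were sought by Pearson's r of log2 CPM with the batch means removed, over 6 libraries and 10486 genes. The 5 highest were Atp11b (0.999), a phospholipid flippase gene with 38.9, 33.5 and 38.6 CPM in WKY and 2.47, 3.26 and 5.15 CPM in SHR, Smurf2, Stx3, Tnrc6b and Itga6. Itga6, the integrin alpha 6 gene, had 80.8, 69.5 and 39.98 CPM in WKY and 4.36, 7.04 and 7.54 CPM in SHR. Smurf2, itself a ubiquitin ligase gene, had 144, 142 and 198 CPM in WKY and 104, 105 and 153 CPM in SHR. These groups overlapped, and SHR was lower within each batch (log2 fold change -0.42). The most opposite were Fiz1, Hmgb2l1, Ndufa10l1, Fmo1 and Galns, with r of -0.998 to -0.996. The points share the strain difference and the libraries, and with so few of them high values of r arise readily among many genes. For Spop the 3 most like were Kctd13 (0.997), an adaptor gene of the cullin 3 ligase, Abcg3l4 and Rab29, and the most opposite were Mier2, Loxl4 and Ess2. Of the genes that lie next to Spop in the RefSeq annotation of the GRCr8 assembly, Fam117a had 15.7 ± 10.9 CPM in WKY and 27.0 ± 19.4 in SHR; Slc35b1 had 126 ± 33.2 and 101 ± 55.8 CPM, and Nxph3 had 19.5 ± 14.7 and 18.7 ± 16.1 CPM (SD, n = 3 each). EdgeR called none of these 3. DESeq2, which called 5.14% of the genes it tested, called Fam117a, higher in SHR (fitted log2 difference 0.77, adjusted p = 0.0343). For the nearest annotated neighbours of Spopl no counts were matched, and they were not analysed here.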

How the data were processed

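The authors deposited estimated counts per gene for 6 libraries, not normalized. The submitters' processing notes name the Rnor_6.0 build and, with no role for any, the tools RSEM 1.2.28, Bowtie2 2.4.4 and DESeq2 1.42.1. Use of strand in counting is not stated there. A second deposited table of log-scale values has equal batch means in every gene and was not used. Estimated counts were rounded, and 12614 of 16770 genes passed the filterByExpr function of edgeR by strain, all 10 members among them. Libraries were TMM-scaled. Strain and batch were terms of a quasi-likelihood fit (edgeR 4.0.16, R 4.3.3; 3 residual degrees of freedom), with two-sided tests and Benjamini-Hochberg adjustment over all genes tested. Genes with an adjusted p below 0.05 were called. The SE and 95% interval were derived from the F statistic. The Wald test of DESeq2 1.42.0 was an alternative. The code was tested on simulated data.

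Named genes are the members, called or otherwise the 3 lowest-p genes of each list, the genes most like or opposite Spopl (5 each) and Spop (3 each), and nearest annotated neighbours. Genes outside this rule (Abtb2, Enc1, Rnf7, Rhoa, Pde5a, Stk39, Oxsr1, Slc12a1, Slc12a2, Slc12a3 and Wnk2) were named after their values were seen. A further gene of the WNK pathway list is not reported here. Members and lists were chosen with earlier results of these data known. Same-numbered libraries of the strains deviated together from their group means (r of 0.30, 0.40 and 0.66 across genes), which follows the batches. With batch means removed the value for replicate 1 was -0.23. The limit a count of 0 allows, 3 counts, was 0.15 to 0.19 CPM.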

Additional observations from a re-analysis of the deposited data

How the results depend on the processing

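Spop kept a negative log2 fold change and stayed above the threshold in all 12 alternatives, from -0.46 to -0.20, and so did Cul3, Rbx1, Klhl2, Klhl3 and Wnk1; Rhobtb1 stayed positive and not called. Spopl, described without a test, was between -3.22 and -2.77 throughout. Wnk1 ran from -0.94 to -0.40. Of 32 genes called over all genes, DESeq2 made it 719, no batch term 2 and the replicate block 6 (5 shared), and leaving out 1 library 0 to 65, with 0 without SHR replicate 1 or 2 (1134 and 1513 at an unadjusted p below 0.05), and with WKY replicate 1, 2 or 3 left out, 4, 65 and 20. Fewer samples or residual degrees of freedom are part of these fits; the cause was not tested further. The replicate block changed no call among the other 9 members. The log2 fold change of the sum of Spop and Spopl was -0.87 with batch 1 alone and -0.86 to -0.63 with 1 library left out. Kbtbd2 changed sign around 0, at 0.016 with DESeq2 size factors, 0.012 with the DESeq2 test, 0.0086 without a filter and -0.11 to 0.055 with 1 library left out. Wnk4 became 0.043 with batch 1 alone and ran from -1.07 to 0.047 with 1 library left out. Weighting by transcript length was not run, because no lengths were used. The Klhl3 values rest on 25 to 41 counts per library.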
